A study of Mus musculus with 4 samples.

Results

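Of the 3389 regions that the authors' deposited table lists as differing in DNA methylation between wild-type microglia and microglia without the transcription factor IRF8, 304 were intergenic, lay near a protein-coding gene and had a lower methylation level in the first of the groups compared. A region was taken when the deposited level of the first group was below that of the second, its midpoint lay in no protein-coding gene, none of its bases lay on a protein-coding exon, and its midpoint was more than 1000 bp and at most 50000 bp from the nearest start of a protein-coding transcript (GENCODE M21 on GRCm38/mm10). The regions were thus selected on the sign of the deposited difference, and every difference given here is a description. The 314 regions that met the same position rule and were higher in the first group serve for comparison. Intergenic refers here to protein-coding genes only. For 54 of the 304 regions and 36 of the 314 the midpoint lay in an annotated gene of another type, such as a noncoding RNA gene or a pseudogene.

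Whole-genome bisulfite sequencing was run on 4 samples, 2 labelled WT and 2 labelled IRF8KO. All were FACS-sorted microglia of untreated C57BL/6J mice at 3 months of age, with DNA from 40000 cells each. The labels give neither the knockout allele, the cells in which the gene is lost, nor the sorting gate, and they do not say whether the samples of a group came from separate animals, so the deposited p-values may reflect technical spread only. The tables hold fitted differences between the groups and no value per sample, which leaves the loss of IRF8, the identity of the cells and the spread between replicates unchecked, and the read depth is unknown. Column headers give the groups numbers and no names, so no genotype is assigned to the first or the second group.

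Methylation of cytosine in CpG dinucleotides is generally low at active enhancers, where bound transcription factors go together with local loss of the mark. IRF8 binds DNA weakly alone and strongly beside the ETS factor PU.1, on a composite element in which a GGAA core for the ETS factor is followed by a GAAA stretch for the IRF partner. PU.1 is needed for microglia to form and IRF8 for their normal mature state, and many of the enhancers they occupy lie between genes at some distance from a transcript start.

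That composite element, searched as GGAANNGAAA on both strands, lay in the 300 bp centred on the midpoint of 58 of the 304 lower gene-near regions. The 5 of them with the largest area scores, where the score sums the authors' test statistics over the cytosines of a region, are printed here with 1 further window that carries the element near Irf4. The windows are chr19:37482781-37483080 beyond Hhex, chr10:94591685-94591984 beyond Tmcc3, chr15:61999580-61999879 beyond Myc, chr3:37673818-37674117 beyond Spry1, chr17:34104824-34105123 beyond Brd2 and chr13:30728360-30728659 upstream of Irf4. Each is the plus strand of the GRCm38 reference, 5′ to 3′, with the match in capitals. A window written with TTTC first carries the element on the minus strand.
Hhex: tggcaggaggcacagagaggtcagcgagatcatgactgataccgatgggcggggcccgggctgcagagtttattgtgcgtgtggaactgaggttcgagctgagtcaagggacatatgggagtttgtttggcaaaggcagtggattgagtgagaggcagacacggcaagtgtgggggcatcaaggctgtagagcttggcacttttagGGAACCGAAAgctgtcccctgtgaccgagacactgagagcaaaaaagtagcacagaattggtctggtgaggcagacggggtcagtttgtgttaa
Tmcc3: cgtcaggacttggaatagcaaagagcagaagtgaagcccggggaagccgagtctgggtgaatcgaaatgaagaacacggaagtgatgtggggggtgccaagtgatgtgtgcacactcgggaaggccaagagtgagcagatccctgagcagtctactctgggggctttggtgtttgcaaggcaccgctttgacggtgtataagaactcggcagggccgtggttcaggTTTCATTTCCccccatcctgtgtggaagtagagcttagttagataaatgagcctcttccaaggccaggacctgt
Myc: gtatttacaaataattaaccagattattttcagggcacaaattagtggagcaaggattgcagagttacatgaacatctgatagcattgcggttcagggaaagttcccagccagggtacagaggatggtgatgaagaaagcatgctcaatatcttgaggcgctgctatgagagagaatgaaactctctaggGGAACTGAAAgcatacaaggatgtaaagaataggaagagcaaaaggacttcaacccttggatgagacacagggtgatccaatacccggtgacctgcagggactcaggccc
Spry1: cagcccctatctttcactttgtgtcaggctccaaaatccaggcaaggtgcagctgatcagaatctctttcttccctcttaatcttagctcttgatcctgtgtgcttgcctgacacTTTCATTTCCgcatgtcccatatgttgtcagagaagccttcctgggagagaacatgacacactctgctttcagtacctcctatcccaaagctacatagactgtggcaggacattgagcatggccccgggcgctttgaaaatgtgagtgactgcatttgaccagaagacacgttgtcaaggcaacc
Brd2: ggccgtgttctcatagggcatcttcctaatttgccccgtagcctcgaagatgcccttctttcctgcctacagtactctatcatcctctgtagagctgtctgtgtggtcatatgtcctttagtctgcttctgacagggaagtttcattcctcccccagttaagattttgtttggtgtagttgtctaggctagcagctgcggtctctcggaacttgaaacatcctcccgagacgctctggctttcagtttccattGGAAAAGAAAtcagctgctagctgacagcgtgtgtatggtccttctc
Irf4: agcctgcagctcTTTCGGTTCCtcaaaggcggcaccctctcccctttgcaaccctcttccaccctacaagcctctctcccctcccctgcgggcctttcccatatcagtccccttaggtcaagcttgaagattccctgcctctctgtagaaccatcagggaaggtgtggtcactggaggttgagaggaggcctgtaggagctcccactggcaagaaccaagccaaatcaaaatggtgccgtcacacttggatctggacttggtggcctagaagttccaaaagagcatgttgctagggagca
In the first 5 windows the match lay inside the region as called, and in the Irf4 window it lay outside the called region. A match is a description of the letters, not a site or a cause.

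The region with the largest area score of all 304 lay upstream of Ccr6 and held no composite element in its central 300 bp. Its window, chr17:8228746-8229045 on the plus strand, is shown with its 7 CpG dinucleotides in capitals to give the density of sites behind a strong region.
Ccr6: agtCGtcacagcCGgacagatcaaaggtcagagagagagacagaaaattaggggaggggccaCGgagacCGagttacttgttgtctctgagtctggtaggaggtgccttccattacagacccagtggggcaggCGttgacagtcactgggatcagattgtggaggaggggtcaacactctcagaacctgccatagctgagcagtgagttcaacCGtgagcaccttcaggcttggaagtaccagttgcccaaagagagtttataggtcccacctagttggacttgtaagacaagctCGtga
The 304 lower gene-near regions held a median of 4 CpGs in this window, against 2 in all 1713739 tiles of 300 bp cut from DNA that meets the same position rule. The median was also 4 in the higher gene-near regions and in all 3389 regions. Every listed region holds at least 4 cytosines, a condition that the tiles did not have to meet.

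The deposited difference of the 304 regions, as the first minus the second group on a scale from 0 to 1, ran from −0.663 to −0.0363 with a median of −0.415. The middle part of the distribution, from the first to the third quartile, spanned absolute differences of 0.374 to 0.467. The median absolute difference was 0.396 in the 314 higher gene-near regions, 0.417 in the 763 lower regions within introns and 0.405 over all 3389 regions. The lower gene-near regions had a median length of 200 bp (51 to 1746 bp) and a median of 9 cytosines (4 to 76), and they covered 79818 bp in all. The higher gene-near regions had medians of 161.5 bp and 8 cytosines.

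Most lower gene-near regions, 218 of 304 (71.7%), lay upstream of the nearest start, and 86 lay past the end of the gene. The share upstream was 72.6% in the higher gene-near regions. The median distance to the start was 18360 bp, with quartiles of 8035 and 32220 bp, and was 17040 bp in the higher regions. Regions close to a start and regions far from it spanned similar differences, as the plot of difference against distance shows. At the near limit, the closest region taken was 1083 bp upstream of Ccr6 (−0.418), and the closest region passed over was 957 bp from Gstp2 (−0.348). At the far limit these were 49685 bp from Kctd1 (−0.374) and 50629 bp from Asprv1 (−0.398). In difference, the smallest inside was −0.0363 near Ryr3, with −0.242 near Lurap1l next, and the smallest among the higher gene-near regions was 0.0739 near Ccdc85a. The Ryr3 region spanned 725 bp with 4 listed positions whose own differences ran from −0.453 to 0.381, so that positions of opposite sign were joined in it.

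**Figure D1:**
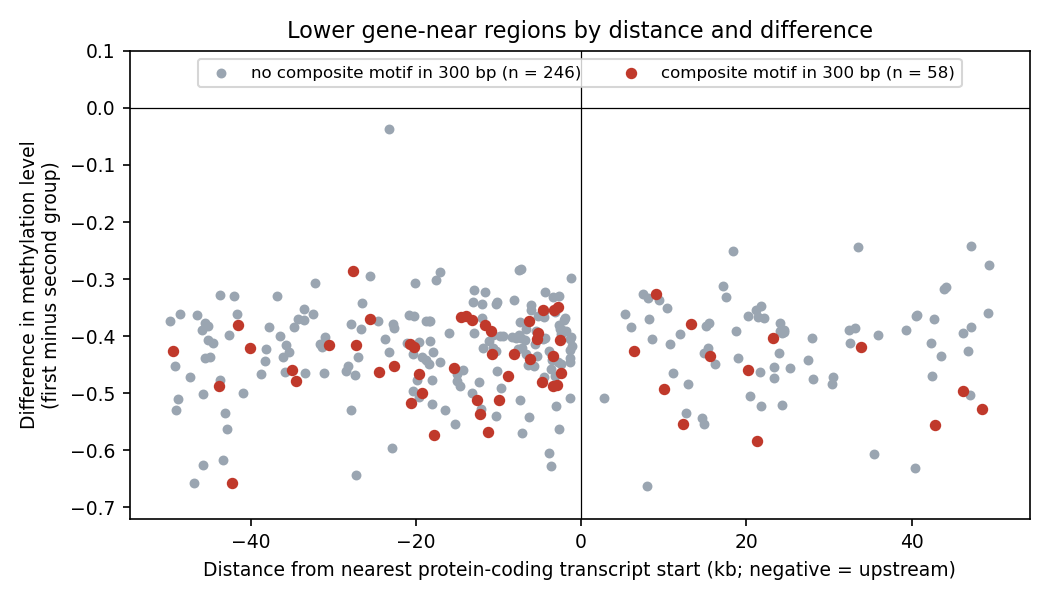
Each point is 1 of the 304 lower gene-near regions, with the distance of its midpoint from the nearest protein-coding transcript start in kb (x axis, negative upstream) and the authors' difference in methylation level (y axis). Red points hold the composite element in their central 300 bp (n = 58) and grey points do not (n = 246); both lie on either side of the start, and the point near Ryr3 at −0.0363 stands apart.

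Within the 304 regions the authors' table of single positions listed 3723 positions, of which 3101 (83.3%) lay on a CpG of the reference. At 3720 of them the difference had the same sign as that of the region. So had 3592 of 3594 positions in the higher gene-near regions and 42896 of 42923 in all regions. A region is made up of its positions, so this agreement is no separate support. Among the 3723 positions, a deposited false discovery rate (FDR) under 0.05 was reached at 1897 (51.0%). The share was 18.7% of all 269406 listed positions and 49.4% of those in any region. At least 1 such position lay in 241 of the 304 regions (79.3%, exact 95% interval 74.3 to 83.7%). The share was 79.6% in all lower regions, 77.9% in all 3389 regions and 73.6% in the higher gene-near regions. These shares rest on the contrast that chose the regions, and nothing is read from them. In 28 regions every listed position passed the threshold, in 144 at least 50% did, and in 63 none did. These counts were 21, 141 and 83 in the 314 higher gene-near regions, and 270, 1510 and 750 in all 3389 regions. The plot of single positions shows regions with many listed positions at both ends of the range, from none to all passing. Of 1589 pairs of listed positions 1 bp apart in the 304 regions, 1495 carried the same difference. Counts of positions, here and below, are therefore not counts of separate differences.

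**Figure D2:**
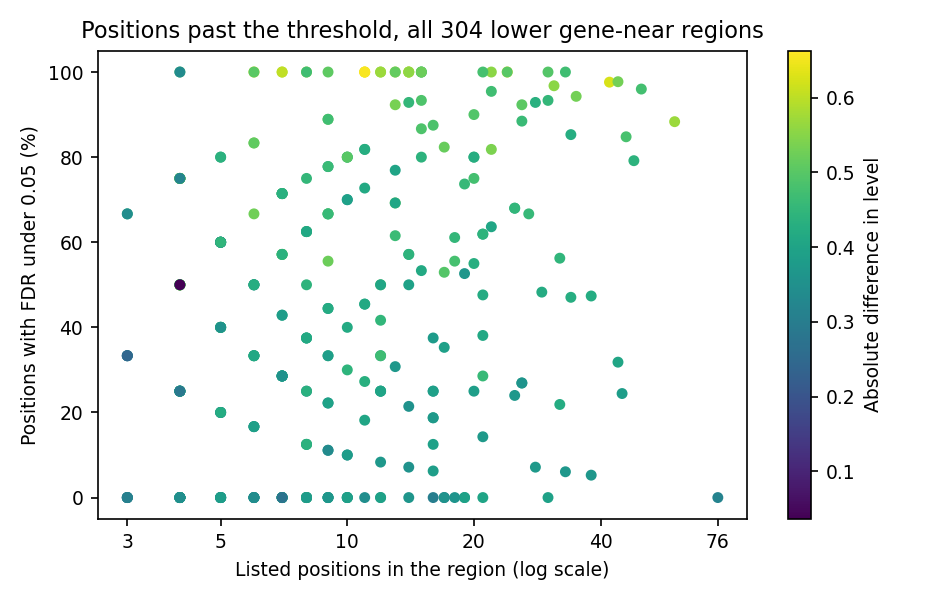
Each point is 1 of the 304 lower gene-near regions (overlapping points cover each other), with the number of positions the authors list in it (x axis, log scale) against the percentage of them with a deposited FDR under 0.05 (y axis), coloured by the absolute difference. The point at 76 positions and 0% is the region beyond Ccr1, and points at 100% include Gng10 with 24 positions.

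The 10 regions with the largest area scores lay near Ccr6, Kctd1, Sirpa, Ccr1, Snrpb2, Lactb, Slc30a1, Gng10, Commd8 and Sipa1l2. Ccr6 encodes the chemokine receptor for CCL20. Its leading region, chr17:8228024-8229769, lay 7147 bp upstream of the start and had a difference of −0.569 in the authors' deposited table. Of its 60 positions 53 passed the FDR threshold, with differences of −0.659 to −0.397 and standard errors of 0.0709 to 0.135. Sirpa encodes an inhibitory receptor of myeloid cells that binds CD47. The region 17998 bp upstream of it had a difference of −0.477, and 48 of its 50 positions passed the threshold. Slc30a1 encodes a zinc exporter, and 39 of 46 positions passed in a region at −0.480, 12300 bp upstream within the antisense gene 1700034H15Rik.

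Gng10, a G protein gamma subunit gene, was nearest to the region with the most negative difference of the 304. That region, chr4:59042841-59043381, lay 8023 bp downstream of the start, with a difference of −0.663, and all 24 positions passed the threshold (lowest FDR 1.46e-18). Snrpb2, which encodes a protein of the U2 spliceosomal particle, had a region 27870 bp upstream at −0.529 with 43 of 44 positions past the threshold. Commd8, a gene of the COMM domain family, had one 16514 bp upstream at −0.529 with 33 of 35. The region nearest to a start among the 10 was 1349 bp upstream of Lactb, a mitochondrial protein gene, at −0.438 with 38 of 48. The region upstream of Sipa1l2, whose product belongs to a family that acts on the small GTPase Rap, lay 34765 bp away at −0.383, and only 11 of its 45 positions passed.

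The fourth largest area score belonged to a region of another kind. It lay 43862 bp past the start of Ccr1, which encodes a receptor for CCL3 and CCL5, and was only 239 bp long with 35 CpGs of the reference (chr9:123924711-123924949). The GC content of its 300 bp window was 77.3%, against a median of 47.7% over the 304 regions. Its difference was −0.318, and none of its 76 positions passed the threshold. The lowest FDR was 0.149, and standard errors ran from 0.0871 to 0.0949. The area score of −267 thus summed 76 positions of moderate difference in a CpG-dense stretch, whereas that of Sirpa (−268) summed 50 positions of larger difference. None of the 10 regions held the composite element in its central 300 bp.

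The 304 regions had 261 different nearest genes, which is 1.19% of the 21924 protein-coding genes, and the higher gene-near regions had 278 (1.27%). A nearest gene is a statement of position and not of control. Most genes, 229, were nearest to 1 region, 28 to 2, and 4 to 3 or more. Ccr6 had 6 regions within 9588 bp, from 1083 to 10272 bp upstream of its start, with differences of −0.569 to −0.329. Besides the leading region, 18 of 22 positions passed the threshold in the outermost (−0.540), and 8 of 15 in another at −0.413. The weakest, 2724 bp upstream at −0.329, had 0 of 7. Kctd1, which encodes a BTB domain protein, also had 6 regions, from 32459 to 49685 bp upstream, with differences of −0.625 to −0.362. In 3 of these 6 nearly all positions passed, with 41 of 42 at −0.625, 14 of 14 at −0.617 and 21 of 22 at −0.471. Part of this group lay within the long intergenic noncoding gene AC102342.2.

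Plekho1, which encodes a pleckstrin homology domain protein, had 4 regions. Of these, 3 lay together 21172 to 22114 bp past the start and 1 lay 1812 bp upstream, with differences of −0.391 to −0.354. Ccr1 had 3, all beyond the gene, from 33114 to 44191 bp past its start, at −0.385 to −0.313. Within 5000 bp, 67 of the 304 regions (22.0%) had another listed region. That neighbour was also lower in the first group for 59 regions and was higher for 8. The higher gene-near regions had a neighbour in 61 of 314 cases (19.4%), of the same direction for 56.

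Of the 261 nearest genes, 32 also held another listed region within the gene or 1000 bp around it. For 20 genes these were all lower in the first group, for 10 all higher and for 2 of both kinds, with 45 lower and 22 higher regions in all. Among all listed regions, wherever they lay, 1581 were lower and 1808 higher. The same count is not given for the genes nearest to the higher gene-near regions. Whether a shared direction at a gene is particular to the lower gene-near regions was therefore not tested. Bin1, which encodes a membrane-bending adaptor protein, alone held 8 of the 45 lower regions, beside its 2 upstream regions at −0.464 and −0.461. Tcf7l2, a transcription factor gene of the Wnt pathway, held 5 regions that were higher, although the region 38693 bp upstream of it was lower at −0.467 with 0 of 8 positions past the threshold. Both genes were chosen after their values were seen. By chromosome, 17 held the most of the 304 regions, 25 of its 36 gene-near regions (69.4%), of which 6 were the Ccr6 regions. Chromosome 19 had the lowest share of lower regions among the autosomes, 7 of 23 (30.4%). Over all chromosomes 304 gene-near regions were lower and 314 higher, and chromosomes 17 and 19 were picked as extremes.

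The composite element was present in 58 of 304 windows, or 19.1% (exact 95% interval 14.8 to 24.0%). It was present in 6 of the 314 higher gene-near regions, or 1.91% (0.704 to 4.11%), so these intervals did not overlap. Lower regions elsewhere had similar shares, with 169 of 763 (22.1%) within introns and 53 of 268 (19.8%) more than 50000 bp from a start. Of the tiles that meet the position rule, 3.33% held the element, and 2.90% of tiles with at least 3 CpGs did. The plot of motif shares sets the elements side by side. Intervals cover counting error only and take regions as independent, and an overlap of intervals does not show equal shares. The element was known from earlier results of these data, so its choice was not independent of them.

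**Figure D3:**
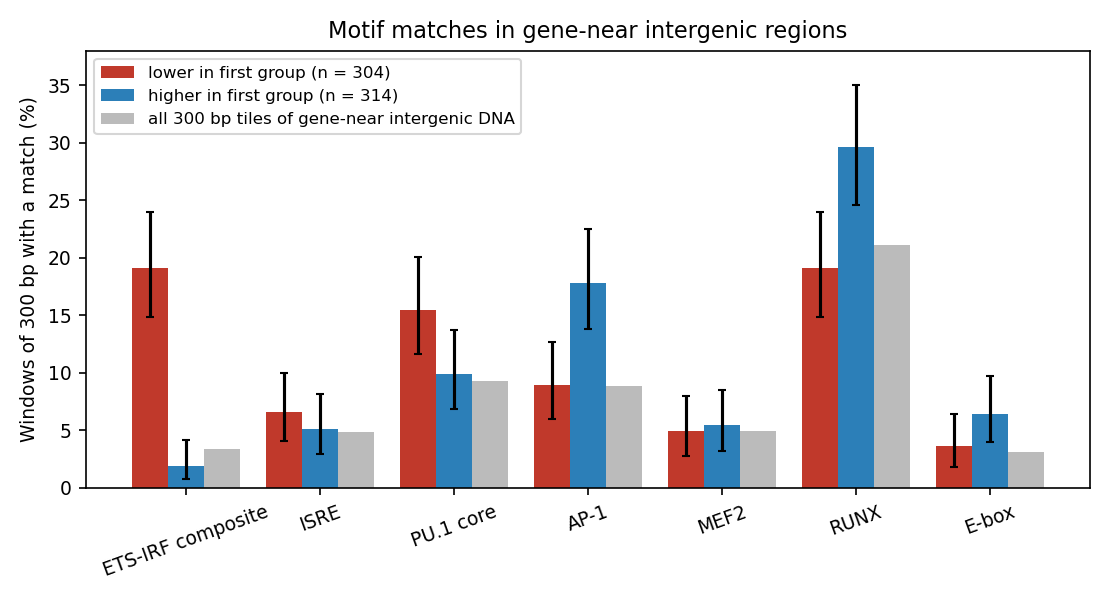
Percentage of 300 bp windows with at least 1 match to each motif on either strand (y axis), for the 304 lower gene-near regions (red), the 314 higher gene-near regions (blue) and all 300 bp tiles of DNA under the same position rule (grey); error bars are exact 95% binomial intervals. The composite element reached 19.1% in the lower regions and 1.91% in the higher ones, whereas AP-1 reached 8.88% and 17.8%.

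For the other elements, the intervals of the lower and the higher gene-near regions overlapped except for AP-1 and RUNX, whose shares were higher in the higher regions. The interferon-stimulated response element, GAAANNGAAA, which IRF dimers and the ISGF3 complex bind, was found in 6.58% of lower gene-near windows (4.07 to 9.98%), 5.10% of higher ones and 4.81% of tiles. A PU.1 core, GAGGAAG, was found in 15.5% (11.6 to 20.02%), against 9.87% (6.81 to 13.7%) and 9.32%, and within introns in 14.5% of lower and 14.1% of higher regions. The AP-1 element TGANTCA, bound by Fos and Jun dimers, was found in 8.88% (5.94 to 12.7%) of the lower gene-near windows, close to the 8.80% of tiles. In the higher gene-near regions it reached 17.8% (13.8 to 22.5%). The RUNX element TGTGGT stood at 19.1% in the lower, 29.6% (24.6 to 35.0%) in the higher regions and 21.1% in tiles.

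The MEF2 element CTANNNNTAG occurred in 4.93% of the lower gene-near windows, 5.41% of the higher ones and 4.91% of tiles. The E-box CACGTG, which MITF and TFE factors of the lysosomal programme bind, occurred in 3.62%, 6.37% and 3.10%. The AP-1-IRF composite element, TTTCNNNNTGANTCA, on which BATF and JUN pair with an IRF, was found in 0 of the 304 windows, which allows a share of up to 0.987% (3 counts of 304). It was found in 0.637% of the higher gene-near windows and 0.113% of tiles. The C/EBP palindrome TTGCGCAA was likewise found in 0 of the 304 windows and in 0.0232% of tiles, a share below the limit that 0 of 304 allows.

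Matches to the composite element were densest near the middle of the lower gene-near regions. In bins of 100 bp, 3.62 to 8.22% of the 304 regions held a match within 200 bp of the midpoint, a mean of 6.41% per bin. Between 500 and 1000 bp on either side, the bins held 0.329 to 2.63%, with a mean of 1.45%. The higher gene-near regions showed no such rise, with means of 0.796% within 200 bp and 1.24% beyond 500 bp. The 763 lower regions within introns did, so the rise was not particular to the gene-near regions. There the bins on either side of the midpoint held 9.44% and 7.86%, and bins beyond 500 bp held 0.393 to 1.835%.

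**Figure D4:**
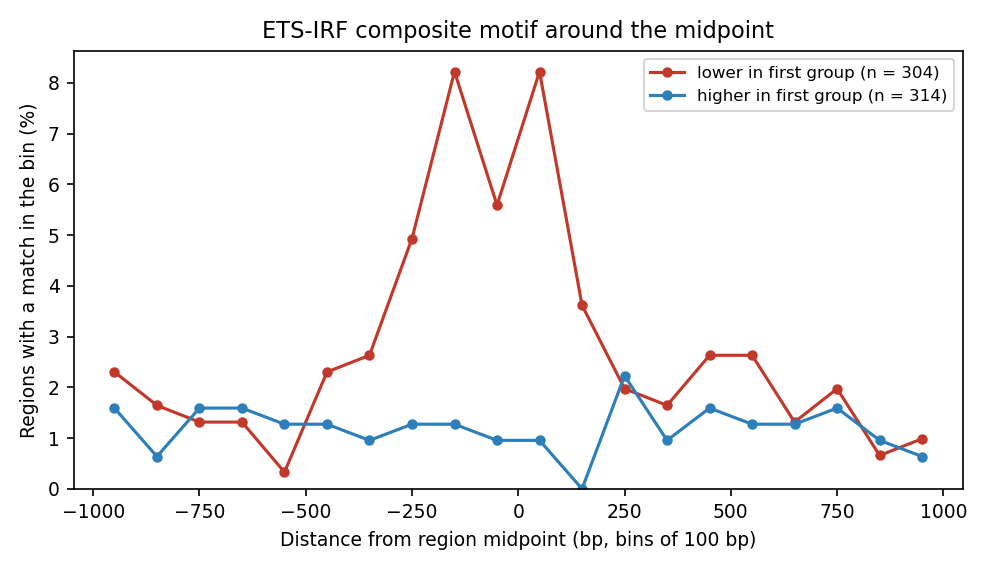
Percentage of regions with a match to the composite element centred in each 100 bp bin (y axis) by distance from the region's midpoint in bp (x axis), for the 304 lower (red) and 314 higher (blue) gene-near regions. The lower regions reach 8.22% near the midpoint and 0.329 to 2.63% beyond 500 bp.

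The 58 windows held 63 matches. The 2 free bases of the element were gt in 17 matches, ct in 13 and at in 12, and 13 of the 16 possible pairs occurred. Only 3 matches contained a CpG, among them those of the Hhex and Irf4 windows. Of the 63 matches, 6 overlapped the PU.1 core, 2 overlapped the interferon-stimulated response element, and 18 lay on soft-masked repeats. The median distance of a match from the midpoint was 79 bp. Only matches in the central 300 bp were counted, which bounds this distance, so no closeness to the midpoint is read from it. In 1 Ccr6 region, chr17:8227778-8227973, 3 overlapping matches lay in a soft-masked run and outside the called region.

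Regions with the element had a median absolute difference of 0.435 (quartiles 0.397 and 0.488, 58 regions), and those without had 0.408 (0.370 and 0.463, 246 regions). A position past the FDR threshold lay in 53 of the 58 (91.4%) and in 188 of the 246 (76.4%). Conversely, the element was found in 22.0% (16.9 to 27.8%) of the 241 regions with such a position. In the 63 without, it was found in 7.94% (2.63 to 17.6%), so these exact intervals overlapped only between 16.9 and 17.6%. Overlap of intervals does not show that the shares were equal, and the difference was not tested. Such positions rest on the contrast that chose the regions. By distance from the start the share was 20.2% up to 10000 bp, 21.9% above that and up to 25000 bp, and 14.9% beyond, with exact intervals that overlapped. The share was 20.6% upstream and 15.1% downstream. By number of cytosines it was 17.3% (29 of 168) with 4 to 9, 26.5% (22 of 83) with 10 to 19 and 13.2% (7 of 53) with 20 or more, again with overlapping intervals.

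The regions whose windows are printed above differed in position support. The region 46192 bp past the start of Hhex, a homeobox factor gene, had a difference of −0.495, with all 30 positions past the threshold. In the region past Myc, which encodes a growth-promoting transcription factor, all 22 positions passed at −0.553, 12308 bp from the start. The region past Tmcc3, a gene for a coiled-coil protein of the endoplasmic reticulum, had 26 of 28 at −0.435. The region past Brd2, which encodes a bromodomain protein that reads acetylated histones, had 18 of 20 at −0.493. For Spry1, which encodes an inhibitor of receptor tyrosine kinase signalling, the count was 14 of 29 at −0.419.

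Genes of 8 lists of microglial and immune function (230 genes, 228 of them annotated as protein-coding) were then looked up among the nearest genes. A lower gene-near region was nearest to 15 of the 228 (6.58%), with 20 regions, against 1.19% of all protein-coding genes. The higher gene-near regions were nearest to 20 of the 228, a count no smaller than on the lower side. Of the 20 regions, 1 held the composite element, that of Irf4. None of the 43 marker genes of border macrophages and monocytes, neurons, astrocytes, the oligodendrocyte lineage or endothelial cells and pericytes was nearest to any of the 304 regions. At the share of all genes, 1.19%, a list of 43 would hold fewer than 1, and 1 marker gene of border macrophages and monocytes was nearest to a higher gene-near region. Counts of 0 or 1 per list are therefore not read, and methylation near a marker gene does not measure how many such cells were present.

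Myeloid transcription factors had 6 of 48 genes with a lower gene-near region, the highest share of the 8 lists (12.5%), and 8 of 48 with a higher one. Irf4 encodes the IRF family member that, like IRF8, binds composite elements with PU.1. Of its 2 regions, 21024 and 20716 bp upstream, the first (chr13:30728118-30728287) had a difference of −0.413, with 5 of 8 positions past the threshold. The second, chr13:30728448-30728572, had −0.415 with 3 of 5, and its window holds the element printed above. Batf3, a basic leucine zipper factor gene that acts with IRF8 in dendritic cells, had 2 regions past its end at −0.332 (2 of 8 positions) and −0.311 (0 of 8). Bhlhe41, which encodes a basic helix-loop-helix repressor, had −0.409 with 5 of 7, and all 7 positions carried this same difference. Myb, a factor gene of blood progenitors, had −0.418 with 3 of 8, and Fos, an AP-1 subunit gene, had −0.412 with 2 of 6. Klf4 had −0.384, and none of its 4 positions passed.

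Cytokines, chemokines and their receptors had 4 of 38 genes, with 4 also for the higher gene-near regions. Besides Ccr1, these were Il1a, Tgfbr1 and Csf2ra. Il1a encodes interleukin 1 alpha, and its region 3584 bp upstream had −0.435 with 5 of 7 positions past the threshold. Tgfbr1 encodes a receptor of TGF-beta, on which microglial identity depends. It was also the single gene of 24 on the microglial identity list (2 on the higher side), with −0.364, 0 of 6 positions and a lowest FDR of 0.0521. Csf2ra, a subunit of the GM-CSF receptor, had −0.351 with 1 of 4.

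Genes of disease-associated microglia had 2 of 19, Ccl6 and Lpl, and 1 on the higher side. Ccl6 encodes a chemokine, and its region 17945 bp upstream had −0.428 with 5 of 7 positions past the threshold (lowest FDR 3.65e-07). Lpl, the lipoprotein lipase gene, had −0.387 with 1 of 6. Antigen presentation had 1 of 20 and 0 on the higher side. The gene was Cd74, the invariant chain of MHC class II, with −0.420 and 4 of 9 positions in a region 11892 bp upstream. A further 5 genes of that list, Tap1, Psmb9, H2-DMa, H2-DMb1 and H2-Oa, had a start within 50000 bp of a lower gene-near region whose nearest gene was another. The same held for Fcrls, Itgam, Klf2, Ctsl, C1qa, C1qc and Ccl3 of other lists. A single region can lie within 50000 bp of several starts, so these genes do not stand for separate regions. The innate receptor list had 1 of 40, C1qb, a subunit gene of complement C1q, and 3 on the higher side. Its 2 regions, 3151 and 3379 bp upstream, had −0.357 (0 of 17 positions) and −0.331 (1 of 10). The lysosome list had 1 of 26, Ctsh, a cathepsin gene, with −0.432 and 0 of 9, and 2 on the higher side. The interferon response list had 0 of 23, and 1 on the higher side.

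**Figure D5:**
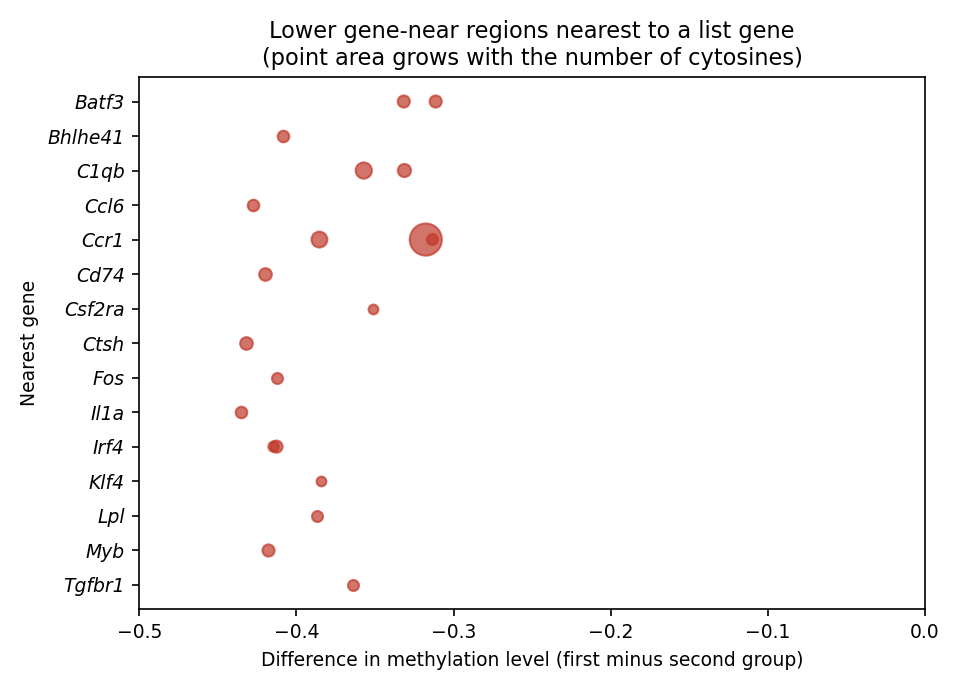
Each point is 1 lower gene-near region whose nearest gene is on one of the 8 lists (20 regions, 15 genes on the y axis), placed by the authors' difference in methylation level (x axis); the point's area grows with its number of cytosines. All 20 lie between −0.435 and −0.311, and the largest point is the Ccr1 region with 76 cytosines.

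The differences near list genes lay within the range of the other regions, and none of the 20 was below −0.435. At 6 of the 20 regions no position passed the FDR threshold, against 63 of all 304.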

How the data were processed

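Bisulfite libraries of 4 microglia samples were made from 50 ng of DNA with 8 PCR cycles and read as paired ends of 75 bp, per the labels' protocols. Trim Galore, Bismark and the mm10 build are named in the submitters' processing notes; for the caller of positions and regions, name and settings were not given in the sources used here. Both tables are the authors' own comparison. The regions carry a deposited difference in methylation level, treated as a score, the number of cytosines and an area score, and the positions a difference, its standard error, a p-value and an FDR, per the file headers. Levels per group were read only to apply the rule.

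Regions were placed against GENCODE M21 protein-coding genes, and their 300 bp windows searched for motifs in the GRCm38 reference sequence with Python 3.11.15, pandas 2.3.3 and numpy 2.4.6. The search was tested on simulated data. Exact binomial (Clopper-Pearson, 95%) intervals came from scipy 1.17.1. No test was added, since no value per sample is used here and the sign of the contrast chose the regions. The members, the lists and the composite element were chosen with earlier results of these data known. Named were the 10 largest area scores, the 6 largest with the composite element (1 of which is not reported here), genes with 3 or more regions, list genes and regions at the limits of the rule. Alternatives covered distance, cytosine number, FDR, window and gene assignment.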

Additional observations from a re-analysis of the deposited data

How the results depend on the processing

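Of 33 alternatives, 18 left a value within its interval (or a count within 1.5 times) and 15 moved it, and 3 of the 33 were added after seeing the data (1 region per nearest gene for 2 results, and regions with a position at FDR under 0.05 for the motif share). The number of regions, 304, fell to 165 with distances up to 20000 bp, 136 with at least 10 cytosines and 198 with at least 3 reference CpGs, as these settings leave regions out by construction. For the median absolute difference, 0.415 became 0.427 among regions of 10 or more cytosines, 0.427 among those of 3 or more reference CpGs and 0.432 among those with a position at FDR under 0.05. The share of regions with a position past the threshold, 79.3%, was 58.6% at an FDR under 0.01, 39.5% at 0.001, 65.8% on reference CpGs alone and 87.5% with at least 10 cytosines. The motif share of 19.1% was 12.8% in 200 bp windows, 26.3% in 500 bp windows and 14.5% outside soft-masked bases, where the higher gene-near regions had 1.59%, 4.14% and 1.27%. Over its other 8 alternatives it ran from 15.5 to 22.0%. The 15 list genes became 27 with any start within 50000 bp and 2 with at least 10 cytosines. Where a filter did not fix the move, the cause was not tested.

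No paired analysis was possible because neither table holds a value per sample, and leaving out a replicate was not run for the same reason. The depth behind each difference is unknown. Of 1589 pairs of listed positions 1 bp apart in the 304 regions, 1495 (94.1%) carried the same difference, so counts of positions overstate separate differences.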
